A study of Mus musculus with 89 samples.

Results

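The genes described here encode the protein factors that start and extend translation on cytosolic ribosomes. They were taken from the count table by name, as every gene whose symbol starts with Eif1 to Eif6 or with Eef1 or Eef2, leaving out the sex-linked pair Eif2s3x and Eif2s3y, the eIF2 kinases and pseudogenes, which gave 58 of 24411 genes. Each sample was 1 cell taken by flow cytometry from the dentate gyrus, the neurogenic part of the hippocampus, of C57BL/6 mice homozygous for Nestin:CFPnuc, listed as B6.Cg-Tg(Nes-CFP)1Enik/J, in which the Nestin promoter drives a nuclear fluorescent protein in stem and progenitor cells. There were 48 cells from mice aged 2 months and 41 from mice aged 4.5 months, all of the same genotype and untreated as far as the labels say. A deposited table puts each cell in a class, and its codes are read here as quiescent neural stem cell (qNSC, 60 cells), active neural stem cell (aNSC, 18 cells) and intermediate progenitor cell (IPC, 11 cells). The same table gives the qNSC cells 3 colours (25 green, 26 red and 9 blue cells), whose meaning is not stated.

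Translation initiation loads a methionyl initiator tRNA onto the small ribosomal subunit through eIF2, brings the subunit to the capped end of an mRNA through eIF3 and the eIF4F complex, and scans to the start codon with eIF1, eIF1A and eIF5. eIF5B then joins the large subunit, eEF1 delivers each aminoacyl tRNA, eEF2 moves the ribosome along and eIF5A helps it through difficult peptide bonds. Quiescent adult neural stem cells are known for low protein synthesis, and entry into the cycle is known to be accompanied by more ribosome and translation factor expression.

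The labels do not tie cells to animals, so each group was treated as 1 sample, and no difference between groups was tested or given a p-value or standard error. An SD below is the spread between cells, which may share animals, and says nothing of the spread between mice. Levels are given as CPM (counts per 1000000 counts of a cell) within a gene and as TPM (scaled to transcript length, with the sum of each cell at 1000000) between genes. A gene was tested, meaning compared, if it had a count in at least 10% of cells, which 53 of the 58 factors and 9989 genes in all did. Eif4e1b had no count in any cell, and Eef1a2 (3 cells), Eif3j1 (3 cells), Eif4ebp2 (3 cells) and Eif4ebp3 (4 cells) were also left out. A difference between groups is the difference of their mean log2(CPM + 1). It was called higher or lower where it reached 1 and the CPM pooled over each group's cells differed at least 2-fold the same way. How cells were put into classes and colours is not stated, and if these same expression values were used, part of any difference between them comes from that choice.

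Cells held 234607 to 1896072 counts, with medians of 918275 in qNSC, 823467 in aNSC and 952296 in IPC, and the median number of genes read was 3714, 4768 and 4647. Taking a marker as present at 10 counts, at least 50% of 7 intermediate progenitor markers were present in 8 IPC cells and in no qNSC or aNSC cell, and at least 50% of 8 cell cycle markers in 0 qNSC, 3 aNSC and 7 IPC cells. At least 50% of 9 quiescent stem cell markers were present in 57 qNSC but also in 12 aNSC and 6 IPC cells, with median summed levels of 27336, 7575 and 1837 CPM. Markers of another cell type reached the same share in 4 qNSC, 8 aNSC and 0 IPC cells. Those aNSC cells included all 7 with Pdgfra at that limit, and the summed level of 9 oligodendrocyte precursor markers ran from 0 to 17360 CPM in aNSC, 0 to 2487 in qNSC and 0 to 1675 in IPC, where 6 of the 9 were at 0. At the same limit of 10 counts, a Y-linked gene was present in 38 of the 48 cells from 2 months and Xist or Tsix in 0, while among the 41 cells from 4.5 months the numbers were 0 and 37.

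The factors took a larger part of the transcriptome from qNSC to aNSC to IPC. Their summed TPM per cell ran from 1708 through a median of 6136 to 10107 in qNSC, from 5987 through 9053 to 11658 in aNSC and from 9423 through 13780 to 16006 in IPC. The IPC range overlapped the highest qNSC cells but lay above the qNSC median in all 11 cells. A qNSC cell had a count for a median of 27 of the 58 genes, an aNSC cell for 36 and an IPC cell for 40. The medians were again 27, 36 and 40 when every cell was thinned to 444835 counts, leaving out 9 shallower cells.

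**Figure D1:**
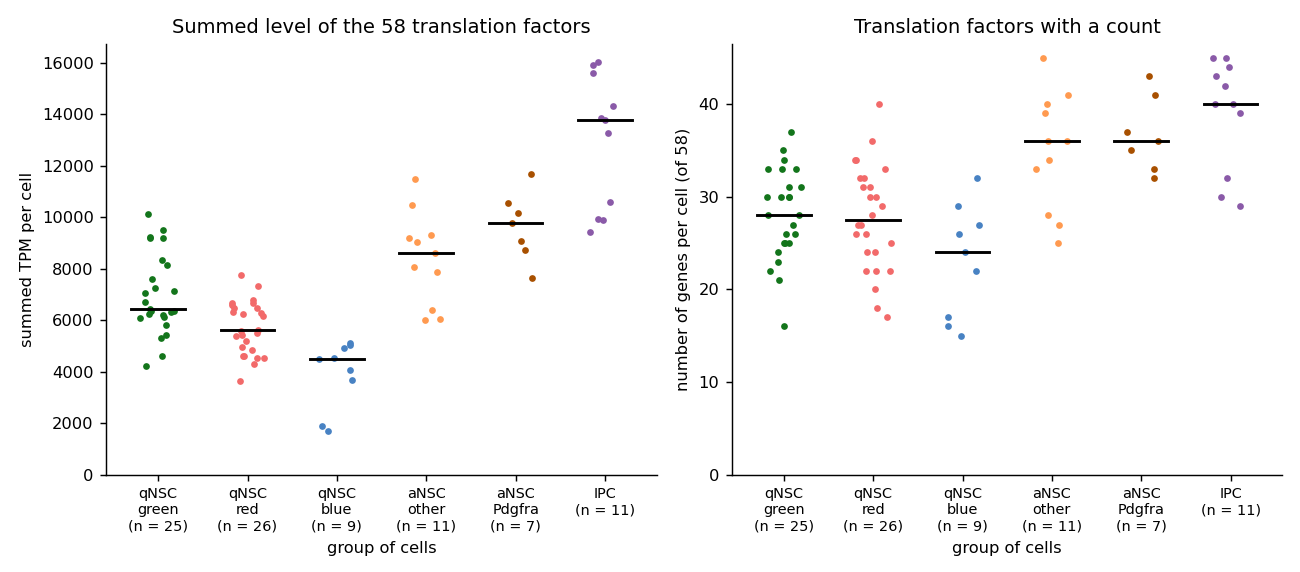
Summed TPM of the 58 translation factors (left) and number of them with a count (right) in each cell, by qNSC colour, aNSC cells with and without Pdgfra, and IPC; points are cells and lines are medians. The 9 blue qNSC cells lie between 1708 and 5121 summed TPM and the 11 IPC cells between 9423 and 16006.

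Eif1, which keeps the scanning ribosome from stopping at wrong start codons, ranked first among the factors in each class, with mean levels of 1396 TPM in qNSC, 1348 in aNSC and 1711 in IPC. Eif5a had 424, 746 and 1075 TPM, and Eef1a1, the carrier of aminoacyl tRNA, had 338, 880 and 1509 TPM. In qNSC the mean level of Eif1 was above that of 99.2% of tested genes. Most other factors were read in only a part of the cells, so that a group mean reflects both how many cells had counts and how many counts each had.

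**Figure D2:**
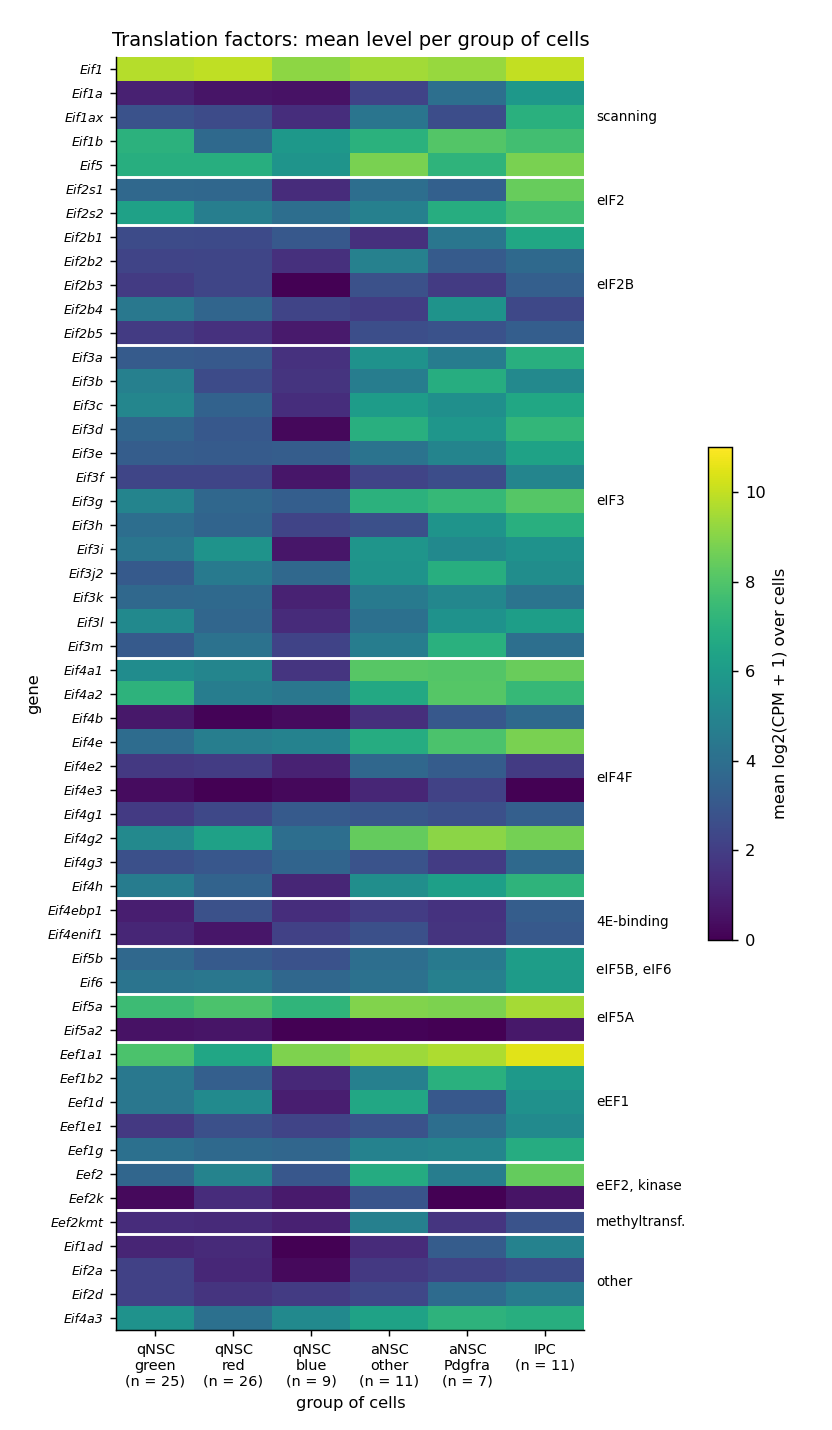
Mean log2(CPM + 1) of the 53 tested factors, ordered by complex, in 3 colours of qNSC, aNSC cells without and with Pdgfra, and IPC. Eif1 is bright in every column, the eIF3 block is dark in blue qNSC cells, and Eif2s1 is brighter in IPC than in the other columns.

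Promoter sequence was available in RefSeq (GRCm38.p6, 250 bases before to 50 after each start) for 44 of the 58 factors. The motif CACGTG, an E-box known as a binding sequence of MYC-family and related factors and identical on both strands, lay in that window in 12 of 44 factors (27.3%), against 8.09% of 27025 genes and 12.3% of the 7683 tested genes with a window. The 12 were Eef2, Eef2k, Eif1b, Eif3a, Eif3f, Eif3k, Eif4a1, Eif4e, Eif4g1, Eif4h, Eif5a and Eif5a2. Their median difference between IPC and qNSC was 2.56, against 2.19 for the 29 tested factors with a window but without the motif. A C followed by at least 5 bases that are each C or T, read on the gene's strand from 20 bases before to 30 after the start as in the start sites of ribosomal protein genes, was found in 17 of 44 factors (38.6%) and in 39% of all genes, so that share was that of genes in general. The following stretches of 30 bases are printed for 6 of these factors, picked after their values were seen, as examples from cap binding, scanning and elongation that are described below, 5′ to 3′ on the strand of the gene, with the E-box in capitals.
Eif4e (chr3:138527192-138527221, plus strand): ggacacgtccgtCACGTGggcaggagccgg
Eif4a1 (chr11:69672595-69672624, minus strand): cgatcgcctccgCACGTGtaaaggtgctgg
Eif4h (chr5:134639488-134639517, minus strand): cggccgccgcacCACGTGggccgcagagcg
Eif5a (chr11:69921443-69921472, minus strand): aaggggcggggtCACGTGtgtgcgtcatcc
Eef2 (chr10:81176576-81176605, plus strand): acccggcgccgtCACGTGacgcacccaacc
Eif1b (chr9:120492570-120492599, plus strand): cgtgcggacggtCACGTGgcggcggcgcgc

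Between aNSC and qNSC, 49 of the 53 tested factors had the higher mean in aNSC, with a median difference of 1.25, against 0.63 over all tested genes. Of all tested genes, 75.5% also had the higher mean in aNSC. The rule called 13 factors higher (24.5%), near the 20% of all tested genes, and 0 lower, against 4.15%. With TMMwsp library sizes, an alternative scaling of the cells, 45 of 53 stayed above 0. Only 4 of 53 were called (Eif4g2, Eif3a, Eif4b and Eif4e3), a smaller share than the 13.2% of all tested genes called higher. Relative to the median of all genes 39 of 53 were above it and 3 of those 4, all but Eif4e3, were called higher. That was again a smaller share of the 53 factors than the 8.35% of all tested genes called higher. Over all tested genes the calls were 2000 higher and 415 lower, but 1315 and 598 with TMMwsp, where the median of all genes was 0.49, and 834 and 1099 relative to that median. Without the 12 cells that carry markers of another type, 42 of 53 were higher in aNSC and the median was 1.17; 13 were again called higher, of which 8 were the same genes, against 17.6% of all tested genes, and 1 (Eif2b4) was called lower.

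Between IPC and aNSC, 43 of 53 factors were higher in IPC with a median of 0.80, while the median of all tested genes was -0.09. Here 12 factors were called higher (22.6%), against 14.7% of tested genes, and 3 lower (5.66%), against 19.2%. Between IPC and qNSC, 50 of 53 were higher with a median of 2.19 against 0.54 for all tested genes, and 27 were called higher (50.9%), against 27.8% of tested genes. A higher mean in IPC was found for 63.4% of all tested genes. Only Eif2b4 was called lower (1.89%), against 12.7%. Over all tested genes 2775 were called higher and 1269 lower, which became 2167 and 1511 with TMMwsp, and 1823 and 2236 relative to the median. The factors called higher then numbered 21 and 19. These comparisons share cells, so their values are set side by side below and not counted as separate support.

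**Figure D3:**
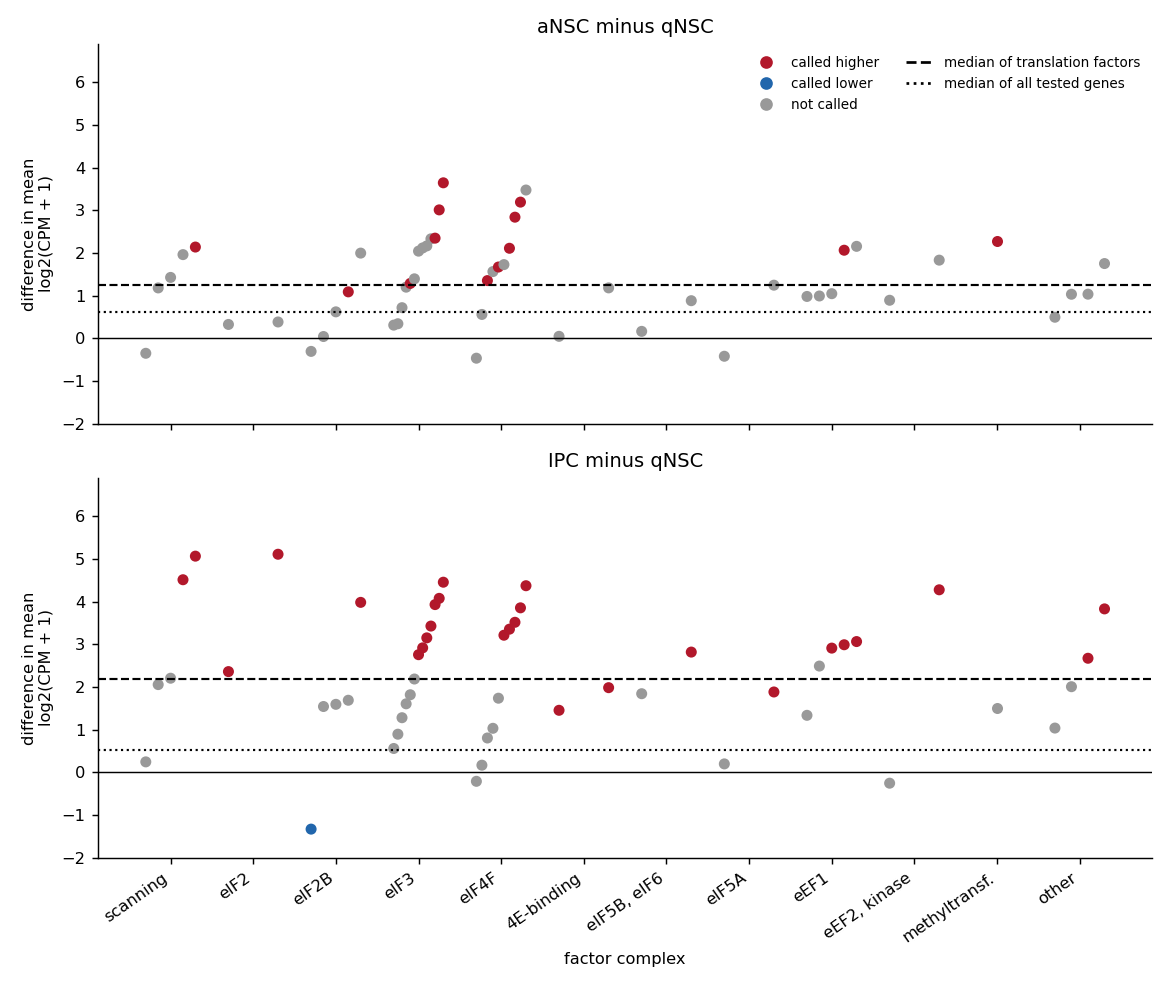
Difference in mean log2(CPM + 1) for each tested factor by complex, aNSC minus qNSC (top) and IPC minus qNSC (bottom); coloured points were called, dashed lines are the median of the factors and dotted lines that of all tested genes. The eIF3 and eIF4F points spread from near 0 to above 3 in the upper panel, while in the lower panel both eIF2 points were called.

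Among the factors of start codon scanning, Eif1 differed little between classes. Its lowest, median and highest CPM were 22.6, 982 and 2059 in qNSC, 163, 816 and 2311 in aNSC and 426, 991 and 2126 in IPC. These ranges overlap almost fully, and the mean difference of aNSC from qNSC was -0.35 and of IPC from qNSC 0.25. Its paralogue Eif1b had a count in 44 of the 60 qNSC, 18 of the 18 aNSC and 10 of the 11 IPC cells, and the share of Eif1 in the summed TPM of the pair was 79.7%, 73.8% and 70.0%.

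The 2 genes of eIF1A, the scanning factor that works beside eIF1, were most often read in IPC. Eif1ax, on the X chromosome, had a count in 25 of the 60 qNSC, 11 of the 18 aNSC and 10 of the 11 IPC cells, with medians of 0, 39.1 and 216 CPM and highest cells at 463, 297 and 584 CPM. The IPC cells lay mostly above the aNSC median, and the mean of IPC was 3.33 above aNSC and 4.52 above qNSC. Eif1a was read in 9 of the 60 qNSC, 8 of the 18 aNSC and 8 of the 11 IPC cells and was the only factor called higher both in aNSC over qNSC (2.14) and in IPC over aNSC (2.93). Without cells of another type its difference of aNSC from qNSC was 0.85 and not called. Eif5, which makes eIF2 hydrolyse its GTP at the start codon, had medians of 251, 395 and 452 CPM. It was not called in any class comparison.

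Of eIF2, which carries the initiator tRNA, the 2 subunits tested here were called higher in IPC than in both aNSC and qNSC. Eif2s1, the subunit whose phosphorylation shuts initiation down, had CPM from 0 through a median of 0 to 664 in qNSC and from 0 through 6.66 to 531 in aNSC. In IPC it ran from 141 through 412 to 825. All 11 IPC cells had counts, against 10 of the 18 aNSC and 27 of the 60 qNSC cells, although the highest qNSC and aNSC cells reached into the IPC range. The mean log2(CPM + 1) was 8.46 (SD 0.88) in IPC, 3.73 (SD 3.84) in aNSC and 3.35 (SD 3.89) in qNSC, giving 4.73 for IPC over aNSC, the largest difference of any factor there. Without cells of another type it was 4.87. Eif2s2 was read in 50 of the 60 qNSC, 16 of the 18 aNSC and all 11 IPC cells, and its pooled level was 158, 118 and 339 CPM, with 2.04 for IPC over aNSC. Its log2(CPM + 1) ran from 3.64 to 9.87 in IPC cells and up to 9.77 in qNSC cells, so the ranges overlapped. Neither subunit was called between aNSC and qNSC, where the differences were 0.38 for Eif2s1 and 0.33 for Eif2s2.

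The 5 subunits of eIF2B, which recharges eIF2 with GTP, did not move as a block. Eif2b1 had a count in 21 of the 60 qNSC, 7 of the 18 aNSC and 10 of the 11 IPC cells and was 3.94 higher in IPC than in aNSC. Eif2b4 went the other way, with counts in 34 of the 60 qNSC, 10 of the 18 aNSC and 4 of the 11 IPC cells and a difference of -1.33 between IPC and qNSC. Those 4 were all IPC cells of 2 months, and none of the 6 IPC cells of 4.5 months had a count. The lower Eif2b4 mean in IPC than in qNSC thus rested on the IPC cells of 4.5 months. Between IPC and aNSC the Eif2b4 difference was -1.02, but 0.24 without cells of another type. Its pooled level was 196 CPM in the 7 Pdgfra-expressing aNSC cells and 38.2 CPM in the other 11. Eif2b5, the catalytic subunit, was called higher in aNSC than in qNSC, by 1.09, and not in IPC. Eif2b2 (2.00) and Eif2b3 (0.62), regulatory and catalytic subunits, were also higher in aNSC and were not called in any class comparison.

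Among factors outside these complexes, Eif2d, which can bring initiator tRNA to the ribosome without eIF2, was read in 18 qNSC, 8 aNSC and 7 IPC cells and was called higher in IPC than in qNSC (2.68). Eif1ad was read in 13 qNSC, 5 aNSC and 8 IPC cells, with pooled levels of 21.7, 42.8 and 113 CPM, and was called higher in IPC than in aNSC (2.80). Both genes thus had their highest level in IPC. Eif2a, another alternative carrier of initiator tRNA, had pooled levels of 42.8, 19.4 and 53.9 CPM and was not called between classes. Eif4a3, a helicase of the exon junction complex that does not take part in cap binding, was read in 41 qNSC, 16 aNSC and 10 IPC cells at pooled levels of 154, 237 and 278 CPM and was not called between classes either.

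Of the eIF3 subunits, which form the scaffold on the small ribosomal subunit, all 13 tested had the higher mean in aNSC than in qNSC, with a median difference of 2.04, and 11 of 13 lay above the median of all genes. Without cells of another type 11 of 13 were higher. The 4 called (30.8%, against 20% of all tested genes) were Eif3d, Eif3g, Eif3a and Eif3e. Between IPC and qNSC all 13 were again higher, with a median of 2.76, and 7 were called (53.8%, against 27.8% of all tested genes). Between IPC and aNSC 9 of 13 were higher and 2 were called, Eif3h (3.09) and Eif3f (2.61). That share of calls, 15.4%, was near the 14.7% of all tested genes. The summed eIF3 level per cell had a median of 1409 TPM in qNSC, 2206 in aNSC and 2894 in IPC.

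Eif3d, a subunit that can itself bind the cap of some mRNAs, had the largest difference of any factor between aNSC and qNSC. Its CPM ran from 0 through a median of 0 to 567 in qNSC, from 0 through 179 to 524 in aNSC and from 0.880 through 209 to 728 in IPC. It was read in 27 of 60, 16 of 18 and 11 of 11 cells, and the highest cells of the classes reached similar levels. The difference of aNSC from qNSC was 3.65 and the pooled level was 2.24-fold higher; the ratio was under 2 with TMMwsp scaling and without the blue qNSC cells, where the differences were 3.41 and 3.19. Eif3g was read in all 18 aNSC cells, at 43.7 CPM or more, and in 40 of the 60 qNSC cells, and differed by 3.01. The pooled level of Eif3a, the largest subunit, was 80.0 CPM in qNSC, 211 in aNSC and 392 in IPC, and its call in aNSC over qNSC held in all 9 alternatives.

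The other eIF3 subunits were higher in aNSC than in qNSC without reaching the 2-fold limit of pooled CPM. Eif3j2, Eif3b, Eif3m and Eif3c, core or loosely bound subunits, differed by 2.33, 2.17, 2.12 and 2.04. Eif3k, Eif3i and Eif3l differed by 1.40, 1.2 and 0.72. Eif3h and Eif3f, which share a fold with proteasome lid subunits, differed by only 0.34 and 0.31 in this comparison and were the 2 subunits called in IPC over aNSC. From aNSC to IPC, Eif3m (-1.56), Eif3j2 (-0.72), Eif3k (-0.50) and Eif3b (-0.35) had lower means, none of them called, so that the subunits of this 1 complex did not share a direction there.

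The eIF4F complex binds the cap and unwinds the mRNA, and its core genes were higher in aNSC and IPC. Eif4e, the cap-binding protein, had medians of 47.7 CPM in qNSC, 294 in aNSC and 589 in IPC, with highest cells at 679, 938 and 1383. Cells without a count numbered 19 of 60, 2 of 18 and 0 of 11. The differences were 2.84 for aNSC over qNSC and 4.38 for IPC over qNSC. The former was 2.32, and not called, without cells of another type. Eif4a1, the helicase, was read in 43 of the 60 qNSC cells and in all 18 aNSC cells, where the lowest had 97.7 CPM. It was 3.48 higher in aNSC, but its pooled level was 160 CPM in qNSC and 306 in aNSC, under the 2-fold limit, so it was not called there. In IPC its pooled level was 719 CPM and it was called over qNSC, by 3.86.

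The balance of the 2 helicase paralogues differed by class. Eif4a1 made up 43% of the summed TPM of Eif4a1 and Eif4a2 in qNSC, 54.3% in aNSC and 73.2% in IPC. Eif4a1 was the higher of the pair in 23 of the 60 qNSC, 10 of the 18 aNSC and 8 of the 11 IPC cells. Within qNSC its share was 34.7% in green, 56.0% in red and 18.6% in blue cells, so that the colours differed from each other by more than qNSC differed from aNSC. Eif4a2 itself had mean levels of 162, 246 and 209 TPM in qNSC, aNSC and IPC and was not called in any class comparison. Eif4e likewise made up 74.9%, 82.1% and 94.0% of the TPM of Eif4e and Eif4e2, a repressive cap-binding relative.

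Among the scaffolds, Eif4g2 (also called DAP5, which lacks the part that binds eIF4E) was the most abundant in each class, with mean levels of 38.1, 102 and 174 TPM. Its CPM ran from 0 through 106 to 956 in qNSC, from 148 through 456 to 1009 in aNSC and from 2.64 through 679 to 2110 in IPC. Every aNSC cell was above the qNSC median, and the difference of 3.19 between them was called in all 9 alternatives. Eif4g1, the canonical scaffold, had mean levels of 11, 17.4 and 22.5 TPM, and Eif4g3 15.2, 10.5 and 11.9 TPM. Neither was called in a class comparison.

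The helicase cofactors were also higher. Eif4h had medians of 3.94, 171 and 179 CPM in qNSC, aNSC and IPC and was called higher in aNSC (2.11) and IPC (3.52) than in qNSC. Eif4b was read in few cells, 8 of the 60 qNSC, 5 of the 18 aNSC and 6 of the 11 IPC, with pooled levels of 3.77, 83.1 and 96.9 CPM. The level in aNSC rested on 5 cells. Eif4e3, a cap-binding relative of Eif4e, was read in 5 of the 60 qNSC and 6 of the 18 aNSC cells and in 0 of the 11 IPC cells, at least 122-fold lower in IPC than in aNSC at a floor of 3 counts over the IPC cells. That difference was -1.56, and -0.85 and not called without cells of another type.

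The proteins that hold eIF4E back were sparsely read. Eif4ebp1 had counts in 20 of the 60 qNSC, 7 of the 18 aNSC and 5 of the 11 IPC cells, with pooled levels of 23.6, 17.7 and 81.6 CPM, and was called higher in IPC than in aNSC (1.41). The median cell of each class had 0 CPM. Eif4enif1, which brings eIF4E into the nucleus and to sites of mRNA repression, had pooled levels of 14.3, 20.8 and 39.4 CPM and was called higher in IPC than in qNSC (1.99).

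Most genes of late initiation and elongation had their highest level in IPC. Eif5b, which joins the ribosomal subunits, had pooled levels of 67.3 CPM in qNSC, 52.9 in aNSC and 172 in IPC, with a difference of 1.94 for IPC over aNSC. Eif6, which keeps free large subunits apart and must leave before they join, had counts in 37 of the 60 qNSC, 12 of the 18 aNSC and 9 of the 11 IPC cells and was not called in a class comparison. Eif5a ran from 0 through 296 to 1381 CPM in qNSC, from 244 through 505 to 1074 in aNSC and from 254 through 828 to 1435 in IPC, with a difference of 1.89 for IPC over qNSC. Its paralogue Eif5a2 was read in 7 of 60, 1 of 18 and 1 of 11 cells.

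Eef1a1 showed the clearest step among the abundant factors. Its CPM ran from 0 through 337 to 2097 in qNSC, from 174 through 791 to 1826 in aNSC and from 349 through 1523 to 3350 in IPC. The ranges overlap, but the spread of qNSC was wide, from none to 2097 CPM, whereas no aNSC or IPC cell was below 174 CPM. The pooled level was 348 CPM (95% exact Poisson interval 343 to 353), 894 (879 to 909) and 1711 (1685 to 1736), 2.57-fold higher in aNSC and 4.91-fold higher in IPC than in qNSC. Its adult neuron and muscle paralogue Eef1a2 had no count in qNSC or in 16 of the 18 aNSC cells. The other eEF1 genes were all higher in IPC than in qNSC, and Eef1g (2.91) and Eef1e1 (2.99), which encodes a scaffold protein of the tRNA synthetase complex, were called.

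Eef2, which drives translocation, was read in 40 of the 60 qNSC, 15 of the 18 aNSC and 11 of the 11 IPC cells, with medians of 31.2, 182 and 454 CPM. In IPC its lowest cell had 101 CPM, and the differences were 4.28 over qNSC and 2.45 over aNSC. The latter was 1.70, and not called, without cells of another type. Eef2k, the kinase that inactivates eEF2, was read in 8 of 60, 4 of 18 and 1 of 11 cells, and the pooled level of 68.9 CPM in aNSC against 8.59 in IPC rested on those 4 aNSC cells. Eef2kmt, which methylates eEF2, was read in 14 of the 60 qNSC and 10 of the 18 aNSC cells and was 2.28 higher in aNSC.

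**Figure D4:**
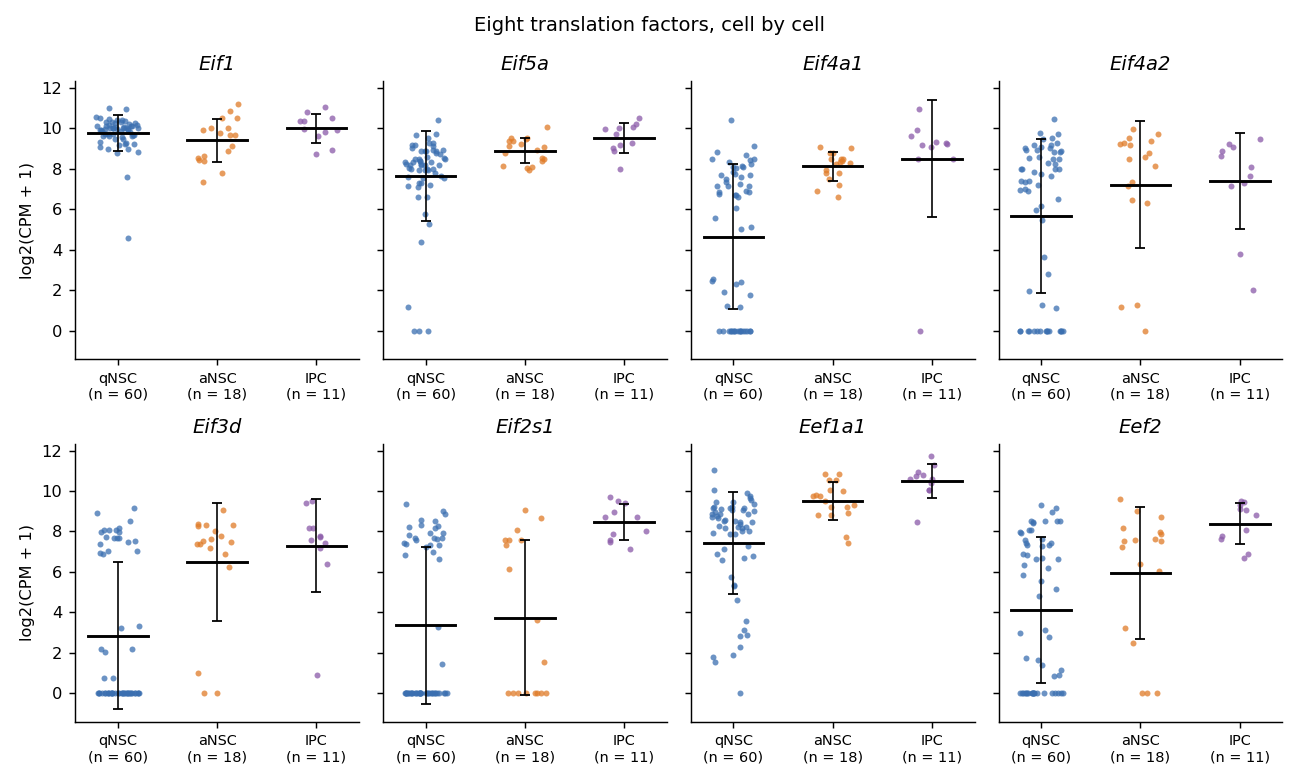
log2(CPM + 1) in each cell for 8 factors by class, with the mean (thick line) and SD over cells (thin bar). Eif1 overlaps across classes; Eif2s1 has counts in all 11 IPC cells but is at 0 in many qNSC and aNSC cells.

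The aNSC class held 7 cells with at least 10 counts of Pdgfra, a gene of oligodendrocyte precursors, and 11 with fewer. The median difference of the factors between them was 0.34, against 0.20 over all tested genes, and 31 of 53 were higher in the Pdgfra cells. The elongation genes went both ways. Eef1d had a pooled level of 48.9 CPM in the Pdgfra cells against 161 in the others, Eef2 106 against 288 and Eef2kmt 16.1 against 102. Eef1a1 had 981 CPM against 818, and Eef1b2, which recharges eEF1A with GTP, 131 against 76.2. Eif2b4 (3.62), Eif3h (3.01) and Eif2b1 (2.77) were higher. In those other 11 aNSC cells, 45 of 53 factors were above qNSC, with a median of 1.21 against 0.49 over all tested genes, and IPC was above these 11 cells by a median of 0.68 against 0.02.

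Within qNSC the green and red cells differed in few factors. The median difference of red from green was -0.07, against -0.05 over all tested genes, and 22 of 53 factors were higher in red. The rule called 2 higher (3.77%), against 4.88% of tested genes, and 2 lower, against 8.45%, so neither share exceeded the background. Eif1b had the largest difference. It was read in 23 of 25 green and 13 of 26 red cells, with medians of 223 and 43.3 CPM and highest cells at 971 and 364 CPM. The difference of -3.34 was called in all 8 alternatives, while Eif1 was read in every cell of both colours at pooled levels of 983 CPM in green and 1025 CPM in red. Eif2s2 was also lower in red (-1.61). Eif4ebp1 was higher in red, with counts in 12 of 26 against 6 of 25 cells (1.80), and Eef2k was read in 6 red cells and 1 green cell (1.10).

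The 9 blue qNSC cells had the lowest levels of the factors. Their summed TPM ran from 1708 through 4490 to 5121, against medians of 6415 in green and 5596 in red, and 42 of 53 factors were lower in blue than in the other 51 qNSC cells, with a median of -0.95 against -0.46 over all tested genes. Of the 9989 tested genes, 7166 were also lower in blue. The rule called 19 lower (35.8%), against 19% of tested genes, and 1 higher, Eif4enif1 (1.22), against 4.12%. Over all tested genes 412 were called higher and 1901 lower, which became 716 and 1517 with TMMwsp and 1018 and 909 relative to the median. The blue cells were also less deeply read, with a median of 793965 counts and 3405 genes. Thinning all cells to equal depth left 6 blue cells, 4 of 2 months and 2 of 4.5 months. The median difference was then -0.70, against -0.35 over all tested genes.

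The subunits of eIF3 made up 7 of the 19 factors lower in blue cells. This was 53.8% of the 13 tested, against 19% of all tested genes. Eif3i was read in 1 of 9 blue cells and 37 of 51 other qNSC cells, Eif3d in 1 and 26, and Eif3k in 3 and 29. The summed eIF3 level per blue cell ran from 0 through 478 to 1040 TPM, while the medians of green and red cells were 1581 and 1449 TPM. In the 5 blue cells of 4.5 months it ran from 0 through 41.5 to 490 TPM. In the 4 blue cells of 2 months it ran from 478 through 833 to 1040 TPM. These cells also differed in depth, with medians of 442931 counts at 4.5 months and 795076 at 2 months. The part of depth was not tested, and age and sex cannot be told apart. Red and green cells of 2 months had medians of 984 and 1584 TPM. Eif3i had the largest difference (-4.33), with a pooled level of 7.22 CPM in blue and 142 in the other cells. Outside eIF3, Eef1d had counts in 2 blue and 35 other qNSC cells (-3.87), and Eif4a1 in 5 and 38 (-3.46). Eef1a1 stood against this pattern, with counts in all 9 blue cells, medians of 460 CPM in blue, 382 in green and 251 in red, and a difference of 1.67 that did not reach the 2-fold limit. Eif4g2 made up 24.7% of the mean TPM of Eif4g2 and Eif4g3 in blue cells, 80.0% in green and 76.4% in red, but cell by cell Eif4g2 was the higher of the pair in 5 blue cells and Eif4g3 in 2.

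The factors differed little by age in qNSC. The median of 4.5 months minus 2 months over 28 and 32 qNSC cells was -0.11, against -0.14 over all tested genes, and 24 of 53 were higher at 4.5 months. No factor was called higher, against 2.74% of tested genes, and 3 were called lower (5.66%), against 6.13%. Those were Eif1ax (-1.54), Eif4g2 (-1.28) and Eef2kmt (-1.23). Eif4g2 had medians of 215 CPM at 2 months and 52.3 at 4.5 months. Within colours its difference was -1.68 in green, -0.05 in red and -3.94 in blue cells, so it was not seen in red, and without the blue cells it was -0.71 and not called. Eif1ax had counts in 17 of 32 qNSC cells at 2 months and in 8 of 28 at 4.5 months, with differences of -1.62 in green, -0.76 in red and -3.19 in blue. Since counts of Y-linked genes came from the 2 month cells and counts of Xist or Tsix from the 4.5 month cells, age and sex cannot be told apart, which touches this X-linked gene directly. Without cells of another type, 7 factors were called lower, against 7.39% of all tested genes in that setting.

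The colours differed in the direction of age. In green cells 35 of 53 factors were higher at 4.5 months with a median of 0.43 against -0.05 over all tested genes, in red cells the median was -0.05 against -0.06, and in blue cells, with 5 and 4 cells, it was -1.36 against -0.11. Those blue cells differed in depth, with medians of 442931 counts and 3005 genes at 4.5 months against 795076 and 3950.5 at 2 months. The part of depth in the blue value was not tested. Within qNSC 10 of 13 eIF3 subunits were higher at 4.5 months with a median of 0.28, and 4 of 5 eEF1 genes were lower. No eIF3 or eEF1 gene was called either way. The summed eIF3 level in qNSC had means of 1369 and 1360 TPM at 2 and 4.5 months, and medians of 1223 and 1510 TPM. By colour, that median went from 1584 to 1454 TPM in green, from 984 to 1733 in red and from 833 to 41.5 in blue cells.

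In aNSC, with 7 cells at 4.5 months and 11 at 2 months, more factors passed the rule. It called 3 higher (5.66%), against 12% of tested genes, and 10 lower (18.9%), against 18.3%, so the share of lower factors was that of genes in general. The median was -0.16, against -0.20 over all tested genes. Eif4a3, the helicase of the exon junction complex, had a count in all 11 cells at 2 months, from 58.3 CPM up, and in 5 of 7 at 4.5 months, with medians of 286 and 145 CPM (-3.43). Eif6 had counts in 9 cells at 2 months and 3 at 4.5 months (-3.41). Eif4ebp1 was read in 6 of 11 and 1 of 7 cells, Eif4b in 4 of 11 and 1 of 7, and Eif1ad, a relative of eIF1A, in 4 of 11 and 1 of 7. Eef2k was higher at 4.5 months (2.99), from 3 of 7 against 1 of 11 cells, as were Eif3f (1.76) and Eif4g1 (1.38).

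At 2 months 4 of these 11 cells had the oligodendrocyte precursor markers, as did 3 of the 7 at 4.5 months. Without all 8 aNSC cells with other markers, which left 6 cells at 2 months and 4 at 4.5 months, the median of the factors was 0.40 instead of -0.16, against 0.00 over all tested genes, and 10 of 53 were called higher, a share near the 20% of all tested genes called higher in that setting. Their part in the age values was not tested beyond this. Eif2s1, called lower by -2.09 with all cells, was then 0.53 higher. Eif4a3 remained lower, by -3.90. In IPC, 24 of 53 factors were higher at 4.5 months, with a median of -0.13 against -0.20 over all tested genes.

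**Figure D5:**
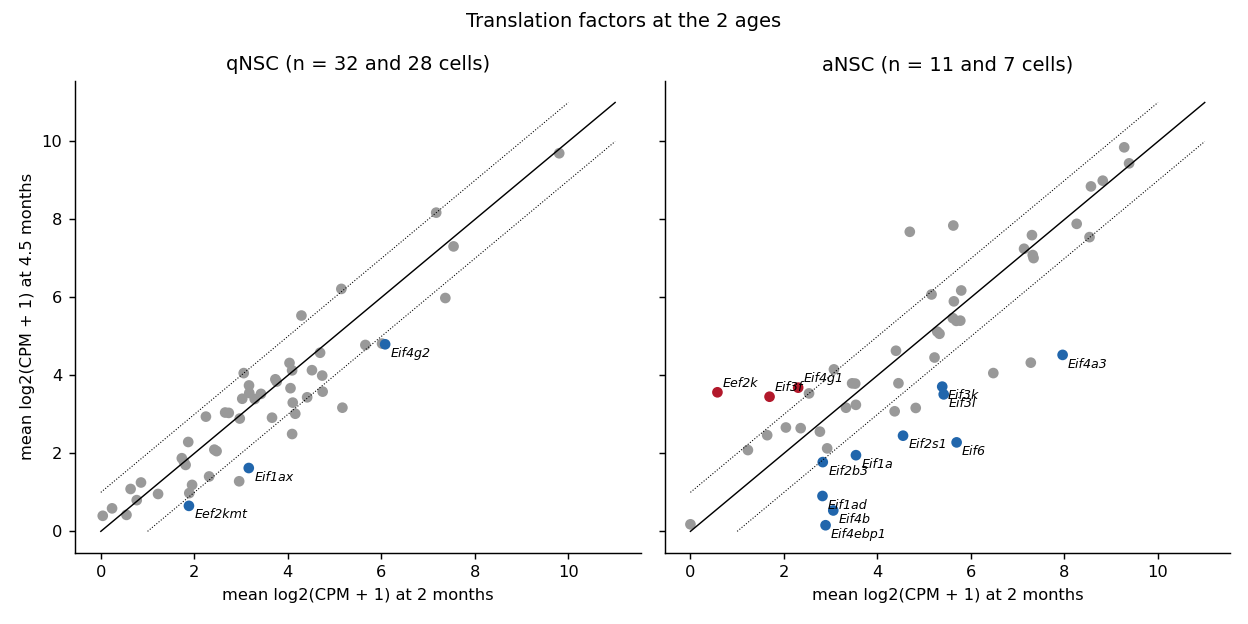
Mean log2(CPM + 1) of the 53 tested factors at 2 months (x) and 4.5 months (y) in qNSC and aNSC; the solid line marks equality, dotted lines a difference of 1, red points were called higher and blue points lower at 4.5 months. The qNSC points lie near the line, with 3 called, and the aNSC points spread more widely, with 13 called.

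Other genes of translation were counted from lists chosen for their role. Of 81 cytosolic ribosomal protein genes, 80 were higher in aNSC than in qNSC with a median of 1.84 and 26 called, and all 81 were higher in IPC than in qNSC with a median of 3.20 and 79 called. These calls compare with 20% and 27.8% of all tested genes. The factors' median of 2.19 in the latter comparison lay below that. Of 23 aminoacyl-tRNA synthetase genes, which include the mitochondrial Fars2, 20 were higher in aNSC than in qNSC (median 1.5, 7 called), led by Eprs (3.39), and 20 in IPC (median 2.42, 13 called), led by Gars (5.29). Of 8 termination and recycling genes, 8 were higher in IPC than in qNSC with a median of 2.00, and the 2 called were no larger a share than that of all tested genes.

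Genes that regulate the factors were counted in the same way. Of 12 mTORC1 and eIF4E kinase genes, 9 were higher in aNSC than in qNSC (median 0.81, 1 called), where Rps6kb1, the kinase of ribosomal protein S6, led with 4.30. Between IPC and aNSC 11 of the 12 were lower (median -0.51, 2 called lower), with Rps6kb1 at -2.31. The other was Tsc1, 1 of the mTORC1 inhibitors that this list also holds, which was called higher (1.81). None of these counts of calls exceeded the share among all tested genes. That share was 20% called higher in aNSC over qNSC. In IPC over aNSC it was 19.2% called lower and 14.7% called higher. Of 8 genes of the eIF2 kinases and the stress response, 5 were higher in aNSC than in qNSC (median 0.34, 0 called), and 8 in IPC than in qNSC (median 0.77, 1 called). Those calls compare with 20% and 27.8% of all tested genes. Of 7 poly(A)-binding protein genes and partners, 6 were higher in aNSC than in qNSC (median 0.54, 1 called higher). In IPC over aNSC 3 were higher (median -0.63, 1 called higher). Over all tested genes the medians were 0.63 and -0.09, and 75.5% were higher in aNSC than in qNSC. Against that share, the mTORC1 list had 75%, the stress list 62.5% and the poly(A) list 85.7%. The medians of the stress and poly(A) lists lay below that of all tested genes there, and only the mTORC1 median lay above it.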

How the data were processed

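Estimated counts and TPM of each gene in each cell were deposited by the authors, along with a class and a colour for every cell. STAR, RSEM and the build mm10 appear in the submitters' processing notes, while versions, annotation and filters are not given in the sources used here. The deposited estimated counts were rounded, since 4.44% of those above 0 lay more than 1e-06 from a whole number. Counts were scaled to CPM by each cell's total and taken as log2(CPM + 1) in Python 3.11.15, and TMMwsp library sizes came from edgeR 4.0.16. Genes with a count in at least 10% of cells (9 or more) were compared. As 1 group is 1 sample, no difference between groups was tested. Dixon's ratio was used only to pick out single cells. The scripts were tested on simulated data. Intervals are exact 95% Poisson intervals, and since reads carry no molecular identifiers, intervals and floors cover counting error only. Factors with close copies or processed pseudogenes (Eif3j1 and Eif3j2, Eif1a and Eif1ax, Eef1a1, Eif4a1, Eif5a) are uncertain where RSEM could split reads, and overlapping antisense genes cannot be told apart. Promoter windows came from RefSeq (GRCm38.p6).

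Any factor could be named within its complex. Full values were given for paralogue sets, for Eef2, Eef2k, Eif6, Eif2s1 and the eIF4E-binding proteins, and for up to 6 called factors each way per comparison. The factors, the lists and these rules were chosen with earlier results of these data known. Alternatives were deposited TPM, a pseudocount of 10, TMMwsp, no filter, a 50% filter, thinned cells, cells without markers of another type, centring on the median of all genes and, chosen after seeing the data, leaving out blue qNSC cells.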

Additional observations from a re-analysis of the deposited data

Results flagged for a closer look

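In groups of 4 to 10 cells, a single cell was set apart where its gap to the nearest other cell exceeded the 95% critical value of Dixon's ratio. This held for 25 of 105 combinations of a factor with the aNSC cells of 4.5 months (7 cells) or the blue qNSC cells (9 cells), while chance gives about 5% for normally distributed values. That rate does not hold here, because many of these groups consist mostly of cells at 0, among which a lone cell with counts is always set apart. The number is therefore a description only. Values are log2(CPM + 1).

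Among aNSC cells of 4.5 months, 1 cell lay above the others for Eif1ad (6.35, next cell 0), Eif4b (3.75, next cell 0), Eif4ebp1 (1.10, next cell 0) and Eif5a2 (1.26, next cell 0). A single cell lay below the others for Eif3c (5.17, next cell 7.56), Eif4a2 (1.26, next cell 6.30), Eif4e (0, next cell 7.58) and Eif5 (1.25, next cell 6.94).

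Among blue qNSC cells, 1 cell lay above the others for Eef1b2 (8.43, next cell 1.70), Eef1d (6.79, next cell 1.70), Eef2k (7.12, next cell 0), Eef2kmt (7.02, next cell 2.25), Eif2a (2.40, next cell 0), Eif2b5 (7.08, next cell 0), Eif2s1 (9.38, next cell 3.25), Eif3d (2.18, next cell 0), Eif3f (5.91, next cell 0), Eif3i (5.94, next cell 0), Eif3k (5.97, next cell 2.40), Eif3l (9.34, next cell 1.70), Eif4a1 (7.47, next cell 2.46), Eif4e2 (6.98, next cell 2.40), Eif4e3 (2.18, next cell 0) and Eif4h (7.35, next cell 2.52). For Eif1, 1 blue cell lay below the others at 4.56, with the next at 8.97. The high values came from several different cells, none of which held more than 4 of them.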

How the results depend on the processing

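Counts of called factors, and 2 single factors, moved with the processing. In aNSC against qNSC the 13 higher became 4 with TMMwsp, 8 with the 50% filter and 3 relative to the median of all genes, and the 0 lower became 1 relative to that median and 1 without cells of another type. Over all genes, TMMwsp moved the calls from 2000 higher and 415 lower to 1315 and 598. In IPC against aNSC the 12 higher became 7 with the 50% filter, and the 3 lower became 0 with a pseudocount of 10 and 1 with the 50% filter; Eif2b4 turned to 0.24 without cells of another type. In IPC against qNSC the 1 lower became 0 with a pseudocount of 10.

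In red against green the 2 lower became 1 with TPM, a pseudocount of 10, TMMwsp and centring, and the 2 higher became 0 with a pseudocount of 10 and the 50% filter. In blue cells the 1 higher became 0 with TPM, a pseudocount of 10 and the 50% filter, 2 with thinned cells, 2 without cells of another type, 4 with TMMwsp and 5 with centring. For age in qNSC the 3 lower became 1 with a pseudocount of 10 and 7 without cells of another type, and the 0 higher became 1 without blue cells. For age in aNSC the 3 higher became 1 with a pseudocount of 10, 0 with the 50% filter and 10 without cells of another type, the 10 lower became 5 with the 50% filter, and Eif2s1 turned to 0.53 without cells of another type. The 50% filter leaves 34 factors; other causes were not tested. No paired analysis was possible because replicate numbers only name cells and no animal is given. Each group stands for 1 sample, classes may rest on these same values, and genes read in few cells rest on those cells.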
